A study of Mus musculus with 8 samples.

Results

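The cells described here are the cycling blasts of the DN4 sort, the double-negative thymocytes that have passed β selection, compared between mice that carry a GSK3B Ser389Ala knock-in (KI) and wild-type (WT) C57BL/6J mice. They were taken as all cells of the DN4 libraries that the deposited cell table places in coarse clusters 3 and 4. The rule found 1160 KI cells of 2577 in the KI DN4 library and 493 WT cells of 1477 in the WT DN4 library, together 1653 of the 10237 cells of the series. Double-negative thymocytes had been enriched from whole thymus with magnetic beads and sorted by flow cytometry as DN3 (CD44- CD25+) or DN4 (CD44- CD25-), and droplet libraries from RNA 5′ ends were made together with libraries of the T cell receptor chains. Each genotype and stage was sequenced as 1 library, so there is no replicate, no p-value and no estimate of the spread between mice. Age, sex and the number of mice behind a library are not given in the sources used here.

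β selection is the first checkpoint of αβ T cell development. A thymocyte whose Tcrb locus has been rearranged in frame pairs the new β chain with the invariant pre-Tα chain into the pre-T cell receptor, and its signals drive survival, a burst of divisions and the passage through DN4 to the CD4+ CD8+ double-positive stage. GSK3β is a serine/threonine kinase that marks β-catenin, Myc, Mcl1 and other proteins for degradation. Its activity can be blocked by phosphorylation near its amino terminus by Akt or, in mouse, at Ser389 near its carboxyl terminus by p38 MAP kinase, and the alanine of the knock-in cannot be phosphorylated there.

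The altered residue is shown with its surroundings, since the genotype is defined by it. In GENCODE vM21 (build GRCm38) codon 389 of the 420-codon transcript Gsk3b-201 lies in exon 10 of 11, at chr16:38228746-38228748 on the plus strand, and encodes serine. The stretch chr16:38228719-38228775 reads as follows in the C57BL/6J reference, with the codon in capitals.
Gsk3b-201, codon 389: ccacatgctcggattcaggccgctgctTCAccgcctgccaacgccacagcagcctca
Gene-level counts do not show whether a transcript carries the changed codon, so the genotype labels could not be checked at this site. Gsk3b itself (chr16:38089001-38246084) was at 60.1 CPM (the gene's summed unique molecular identifiers, UMIs, over all cells of the class, scaled to the same fixed total in each library) in KI DN4 blasts and at 67.2 CPM in WT DN4 blasts.

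The level of each gene is the CPM of the summed UMIs, 22728018 in KI and 10435098 in WT blasts, and each KI over WT difference is a log2 ratio with an exact 95% interval from the counts. Those intervals, and the exact binomial intervals of shares, cover counting error only. Genes that reached 20 CPM in KI or WT blasts, 5149 in all, are called measured. Genes were counted as past 2-fold by the size of the ratio, and in a second, wider count as past 1.5-fold where the interval also excluded 0.

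The label was checked against marker genes. All 13 markers of β-selected blasts were detected, with a summed level of 1880 CPM in KI and 2316 CPM in WT. Cd8b1, the β chain of the CD8 coreceptor, was at 174 CPM in KI and 237 CPM in WT blasts, against 13.7 CPM in KI and 13.4 CPM in WT blasts of the DN3 sort. Il2ra, which encodes the CD25 used to separate the sorts, was at 3.92 CPM in KI and 4.02 CPM in WT DN4 blasts, and at 163 CPM in KI and 186 CPM in WT DN3 blasts. The proliferation gene Mki67 was at 171 CPM in KI and 182 CPM in WT blasts, against 13.1 CPM in KI and 10.8 CPM in WT cells of cluster 2, the largest other cluster of the KI DN4 library. The 13 markers summed to 2585 CPM in KI and 3684 CPM in WT cells of cluster 2, so their sum does not set the blasts apart. The values of Cd8b1 and Mki67, picked from the 13, go with the label of cycling cells with Cd8b1 transcripts. Cd8b1 was set against DN3 blasts here and not against cluster 2. Low Il2ra follows from the CD25- gate of the DN4 sort, so it is no check of the label.

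Markers of other cells were low or led by single genes. The γδ T cell markers summed to 414 CPM in KI and 531 CPM in WT blasts, and to 2824 CPM in KI and 3441 CPM in WT cells of cluster 2. Markers of NK and innate lymphoid cells summed to 787 CPM in KI and 916 CPM in WT blasts, nearly all of it the granzyme gene Gzma at 779 CPM in KI and 905 CPM in WT. Gzma stood at 2955 CPM in KI and 2312 CPM in WT cells of cluster 2, while Ccl5, Klrb1c, Klrd1, Klrk1 and Gzmb were at 0 in blasts of both genotypes. B cell markers, mostly Ighm, summed to 361 CPM in KI and 394 CPM in WT, and those of mature αβ T cells to 71.3 CPM in KI and 80.6 CPM in WT. The myeloid markers, with Itgam and Itgax at 0, summed to 116 CPM in KI and 124 CPM in WT. The part of these other transcripts in the differences below was not tested.

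The blasts made up 45.01% of KI DN4 cells (interval 43.08 to 46.96%) and 33.38% of WT DN4 cells (30.97 to 35.8%), a share that depends on what else the DN4 gate let through. Of the KI blasts 767 were in cluster 3 and 393 in cluster 4, and of the WT blasts 242 were in cluster 3 and 251 in cluster 4. Which genes placed a cell in cluster 3 or 4 is not given in the sources used here, so the sizes of the clusters are given without a reading. A KI blast had a median of 19436 UMIs and 3963 genes, and a WT blast a median of 20697 UMIs and 4190 genes. With every cell thinned to 5000 UMIs, which left out 8 KI and 6 WT cells, the medians were 1862 genes in KI and 1894 genes in WT. Mitochondrially encoded genes took a median of 1.79% of a cell's UMIs in KI and 1.75% in WT. The KI and WT DN4 libraries shared 3 cell barcodes, and none lay in the blasts of both. A doublet caller marked 35 KI and 13 WT blasts, which were left in.

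Few measured genes were far apart between the genotypes, and more of them were lower in KI than higher. At 2-fold, 3 genes (0.0583% of those measured) were higher in KI and 22 (0.427%) were lower. At 1.5-fold, 23 genes (0.447%) were higher and 123 (2.39%) lower. The imbalance was smaller within a cluster, with 66 genes 1.5-fold higher and 184 lower in cluster 3 alone and 80 higher and 160 lower in cluster 4 alone. Without genes that share sequence with another gene, 20 were 1.5-fold higher and 63 lower. With these summed depths small differences had intervals that excluded 0: 985 genes (19.1%) lay above it and 1307 (25.4%) below it, so an interval that excludes 0 is common and is to be read with the size of the ratio. The counts of list members given below are to be read beside these shares. The median log2 ratio of all measured genes was −0.02. With trimmed-mean scaling that median was 0.04, 1542 intervals lay above 0 and 890 below it, so which side held more of the small differences depended on the scaling.

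**Figure D1:**
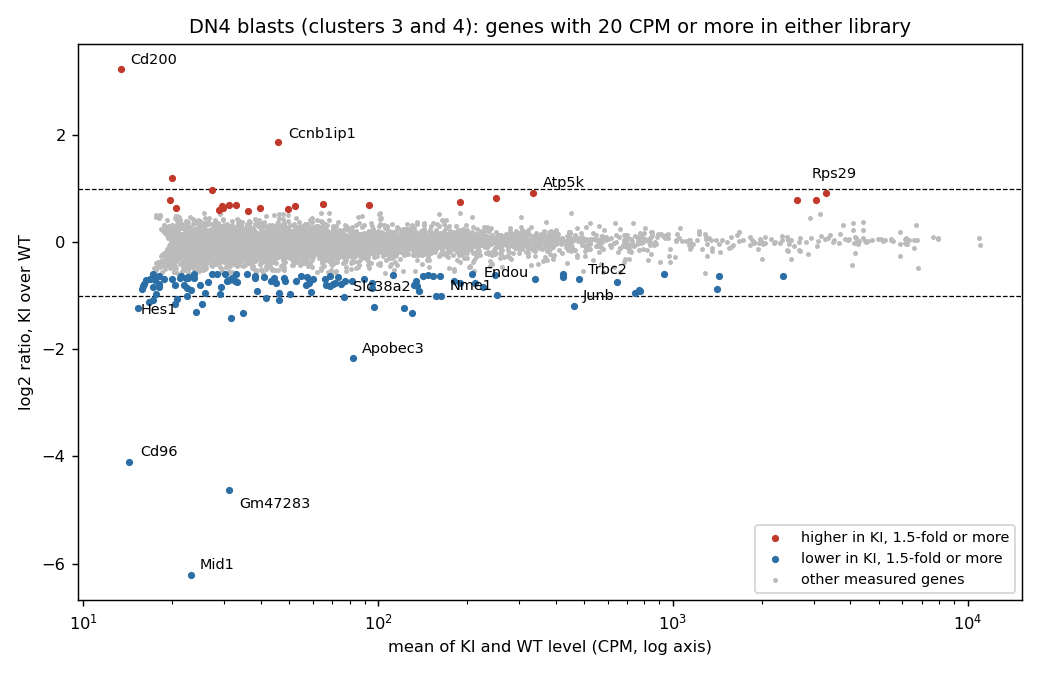
Log2 ratio KI over WT of each measured gene in DN4 blasts (vertical axis) against the mean of its KI and WT levels in CPM (horizontal log axis); dashed lines mark 2-fold, red points are the 23 genes at least 1.5-fold higher in KI and blue points the 123 lower. Mid1, Gm47283, Cd96 and Apobec3 lie far below the other genes and Cd200 and Ccnb1ip1 above them.

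The largest differences were in genes close to absent in blasts of one genotype. Mid1, which encodes a microtubule-bound E3 ubiquitin ligase and spans the boundary of the pseudoautosomal region (chrX:169685199-170005736), was at 0.616 CPM in KI and 45.6 CPM in WT blasts (log2 ratio −6.21, interval −7.09 to −5.45). In DN3 blasts, which come from separate libraries, Mid1 was at 0.408 CPM in KI and 37.9 CPM in WT. Gm47283, annotated on the Y chromosome (chrY:90784738-90816464), was at 2.42 CPM in KI and 59.9 CPM in WT blasts (log2 ratio −4.63, interval −5.05 to −4.23). Both genes were near background in KI and plainly present in WT at both stages. Of the 60-base words in their transcripts, 24.1% in Mid1 and 55.9% in Gm47283 also occur in another gene, so how reads were assigned can bear on these values. Xist, transcribed from the inactive X chromosome, was at 319 CPM in KI and 408 CPM in WT blasts, so cells of females were present in both libraries. The Y-linked genes Ddx3y, Eif2s3y, Kdm5d and Uty are absent from the genes of the matrix, so male cells could not be looked for with them. Gm47283 was not read as a marker of male cells.

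Cell-surface genes on chromosome 16 formed the next group. Cd200, an immunoglobulin-family glycoprotein that engages the inhibitory receptor CD200R (chr16:45382135-45409053), was at 24.3 CPM in KI and 2.59 CPM in WT blasts, with 553 and 27 UMIs in KI and WT (log2 ratio 3.23, interval 2.68 to 3.85). Cd96, a receptor of the same family that binds CD155 (chr16:46035657-46120251), went the other way at 1.58 CPM in KI and 27.1 CPM in WT blasts (log2 ratio −4.10, interval −4.64 to −3.59). Each gene was high in one genotype and close to absent in the other. DN3 blasts had the same order, with Cd200 at 15.4 CPM in KI and 3.06 CPM in WT and Cd96 at 1.63 CPM in KI and 35.8 CPM in WT. In cluster 2, which shares its libraries with the blasts, the log2 ratio was 0.68 for Cd200 and −2.05 for Cd96. Cd47, whose product signals to phagocytes through SIRPα (chr16:49800533-49915010), was just outside the 2-fold threshold at 170 CPM in KI and 337 CPM in WT blasts (log2 ratio −0.99, interval −1.05 to −0.92).

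These genes lie near the edited locus. Gsk3b is 7.14 Mb from Cd200, 7.79 Mb from Cd96 and 11.6 Mb from Cd47. Within 10 Mb of Gsk3b 4 of 39 measured genes (10.3%) were past 1.5-fold, against 146 of 5149 genes (2.84%) in the whole set. The other members of the 4 were Timmdc1, an assembly factor of respiratory complex I 0.25 Mb away (log2 ratio 0.70), and Hes1 at 8.02 Mb. Over all of chromosome 16 the count was 8 of 163 genes (4.91%), and the median log2 ratio within 10 Mb was 0.02. The part of chromosomal position in these differences was not tested.

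Apobec3, a cytidine deaminase that restricts retroviruses, was at 29.9 CPM in KI and 134 CPM in WT blasts (chr15:79891659-79915906; log2 ratio −2.16, interval −2.30 to −2.03). DN3 blasts gave 35.01 CPM in KI and 201 CPM in WT. Apobec3 was therefore lower in KI at both stages, by somewhat more in DN3 (log2 ratio −2.52). The difference between the stages was 0.35 (0.14 to 0.57), and cluster 2 gave a log2 ratio of −1.46. Hes1, the transcriptional repressor through which Notch acts in early thymocytes, was at 15.0 CPM in KI and 30.1 CPM in WT blasts (log2 ratio −1.004, interval −1.23 to −0.78). Slc38a2, a transporter of neutral amino acids, was at 50.9 CPM in KI and 103 CPM in WT blasts (log2 ratio −1.01, interval −1.14 to −0.89). In DN3 blasts Slc38a2 was at 52.98 CPM in KI and 99.0 CPM in WT, and Hes1 at 38.9 CPM in KI and 51.7 CPM in WT. All 3 genes stood lower in KI at both stages, Hes1 by less in DN3.

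The remaining genes past 2-fold were of mixed kinds. Lower in KI were Banp, which encodes a DNA-binding protein of the nuclear matrix (−1.15), the planar polarity gene Prickle1 (−1.10), the G protein γ subunit gene Gng10 (−1.06), Nutf2-ps1 (−1.08) and 5830405F06Rik (−1.14). Of these, Gng10 shares 78.7% and Nutf2-ps1 96.1% of its 60-base words with another gene. Histone and receptor genes, counted apart, added Hist1h3a, Hist1h1d, Hist1h2ac, Hist1h2ae, Hist1h1a, Trbv4 and Trav21-dv12, and ribosomal genes added Rpl10-ps3, which shares 96.1% of its 60-base words. The annotated span of 5830405F06Rik (chr6:41055883-41063102) holds that of Trbv4 (chr6:41059394-41059886), so their positions overlap. Junb, Dynlt1f and Cycs, also past 2-fold lower, are described with their groups. The third gene higher in KI was Gm28727, at 27.9 CPM in KI and 12.2 CPM in WT (log2 ratio 1.197), which the annotation used did not match. Just outside the threshold lay Ktn1 (0.97), Atp5k (0.93) and Rps29 (0.92) on the higher side, and Nme1 (−0.998), Cd47 (−0.99) and Hist1h1c (−0.97) on the lower side. Just inside it on the lower side lay Slc38a2 (−1.01), Hes1 (−1.004) and Hist1h1a (−1.004). On the higher side Gm28727 came nearest to it, with Ccnb1ip1 (1.88) and Cd200 (3.23) well beyond.

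The named genes higher in KI by less than 2-fold had varied roles. Sgo1, which protects cohesin at centromeres, was at 36.3 CPM in KI and 23.3 CPM in WT blasts (log2 ratio 0.64, interval 0.43 to 0.85), and the chromosome-bound kinesin gene Kif4 at 25.2 CPM in KI and 16.2 CPM in WT (0.64, 0.39 to 0.89). The spliceosome helicase genes Snrnp200 (0.63) and Ddx23 (0.64), the ribosomal RNA processing gene Pdcd11 (0.68) and Poldip3, whose product takes part in mRNA export (0.72), lay in the same range. Serinc3, a gene of a membrane protein taken up into retroviral particles, was at 64.2 CPM in KI and 40.1 CPM in WT (0.68), and Gbp7, of the interferon-inducible guanylate-binding proteins, at 24.9 CPM in KI and 14.5 CPM in WT (0.78). Serinc3 (0.70), Poldip3 (0.74) and Kif4 (0.62) had ratios of like size in DN3 blasts, while Pdcd11 (−0.07), Ddx23 (0.01) and Gbp7 (0.07) lay near 0 there and Sgo1 at −0.32.

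Transcription factors of the T lineage were lower in KI blasts. Of 15 listed 14 were measured, and the interval lay below 0 for 10 and above it for 2, with a median log2 ratio of −0.36 against −0.02 for all measured genes. Bcl11b, which fixes T cell identity, was at 92.9 CPM in KI and 127 CPM in WT blasts (−0.45, −0.55 to −0.35). Gata3, needed from the earliest stages through the CD4 choice, was at 55.7 CPM in KI and 75.9 CPM in WT (−0.45, −0.58 to −0.32). Myb, required for double-negative and double-positive progression, was at 146 CPM in KI and 203 CPM in WT (−0.48, −0.56 to −0.40), and Sox4 at 171 CPM in KI and 236 CPM in WT (−0.46, −0.53 to −0.39). Runx1, which with its partner Cbfb represses Cd4 at this stage, was at 81.7 CPM in KI and 106 CPM in WT (−0.38, −0.49 to −0.27). None of these genes reached 1.5-fold. The same list had a median of −0.11 in DN3 blasts, with 6 intervals below 0 and 2 above. In cluster 2, which shares its libraries with the DN4 blasts, the median was −0.35, with 10 intervals below 0 and none above.

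TCF1 and LEF1, the DNA-binding partners of β-catenin, were among them. Tcf7, which encodes TCF1, was at 790 CPM in KI and 1022 CPM in WT DN4 blasts (−0.37, −0.41 to −0.34), and Lef1 at 211 CPM in KI and 267 CPM in WT (−0.34, −0.41 to −0.27). DN3 blasts had Tcf7 at 848 CPM in KI and 705 CPM in WT (0.27, 0.21 to 0.32), so the order of the genotypes was reversed there, while Lef1 was at 269 CPM in KI and 300 CPM in WT. Myc, a target of Wnt and TCF1 and a substrate of GSK3, was at 107 CPM in KI and 114 CPM in WT DN4 blasts, with an interval that held 0 (−0.09, −0.19 to 0.02). Of the 12 genes listed as Wnt and TCF1 targets 3 were measured, Tcf7, Lef1 and Myc, and Axin2 stood at 1.496 CPM in KI and 1.15 CPM in WT.

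Genes of the kinase and its pathway differed little. Gsk3b had a log2 ratio of −0.16 (−0.29 to −0.03), its paralog Gsk3a −0.06 (−0.26 to 0.14), Mapk14, which encodes the p38α kinase of Ser389, −0.18 (−0.34 to −0.01), and Ctnnb1, which encodes β-catenin, −0.11 (−0.19 to −0.02). Akt1 was at 22.5 CPM in KI and 27.4 CPM in WT blasts (−0.29, −0.50 to −0.07). Of 15 listed genes 9 were measured, with 4 intervals below 0 and 1 above and none past 1.5-fold. In DN3 blasts Gsk3b was at 60.2 CPM in KI and 72.0 CPM in WT (−0.26, −0.43 to −0.08).

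Genes of the pre-T cell receptor and its first signalling steps were mixed. Of 18 listed 15 were measured, with 6 intervals below 0 and 2 above and a median of −0.05. Ptcra, the gene of pre-Tα, was at 81.8 CPM in KI and 107 CPM in WT blasts (−0.39, −0.50 to −0.28). The costimulatory receptor gene Cd28 was at 98.8 CPM in KI and 133 CPM in WT (−0.43, −0.53 to −0.33). Ptprc, which encodes the phosphatase CD45, was higher at 187 CPM in KI and 148 CPM in WT (0.34, 0.26 to 0.43). All 3 had ratios of the same sign in DN3 blasts, at −0.31 for Ptcra, −0.49 for Cd28 and 0.29 for Ptprc.

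Genes that follow the strength of receptor signals were mostly lower in KI. Of 14 listed 6 were measured, 5 with an interval below 0 and 1 above, and the median was −0.50. The nuclear receptor genes Nr4a1 and Nr4a2, induced within the first hours of receptor signalling, were at 93.6 CPM in KI and 133 CPM in WT blasts for Nr4a1 (−0.51, −0.61 to −0.41) and at 11.6 CPM in KI and 20.3 CPM in WT for Nr4a2 (−0.81, −1.08 to −0.54). Dusp5, an ERK phosphatase, was at 44.6 CPM in KI and 70.1 CPM in WT (−0.65, −0.79 to −0.52). Id3, the inhibitor of E proteins that pre-T cell receptor signals raise, was at 67.5 CPM in KI and 94.97 CPM in WT (−0.49, −0.61 to −0.38). Dusp2 was the exception at 38.02 CPM in KI and 32.1 CPM in WT (0.24, 0.06 to 0.43). Egr1, an early target of the pre-T cell receptor below the level for a measured gene, was at 9.77 CPM in KI and 10.1 CPM in WT (−0.04, −0.38 to 0.31), a difference within counting error.

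Immediate early genes were led by Junb, a subunit of the AP-1 transcription factor. Junb was at 282 CPM in KI and 641 CPM in WT DN4 blasts (chr8:84974484-84978718; −1.19, −1.23 to −1.14), and at 424 CPM in KI and 853 CPM in WT DN3 blasts. Fos, its partner in AP-1, was at 110 CPM in KI and 158 CPM in WT (−0.53, −0.62 to −0.44). Jun was higher at 85.0 CPM in KI and 71.0 CPM in WT (0.26, 0.14 to 0.38), so members of one dimer family lay on both sides. Of 12 measured genes of the 18 listed, 6 intervals were below 0 and 1 above, with a median of −0.21 and Junb the single gene past 1.5-fold. In cluster 2 the median was −0.39, with 8 intervals below 0 and 1 above.

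The genes that come on toward the double-positive stage were lower in KI DN4 blasts. Of 16 listed 13 were measured, 10 with an interval below 0 and 1 above, and the median was −0.32. That median was 0.00 in DN3 blasts and −0.12 in cluster 2. Endou, an endoribonuclease gene of double-positive cells, was at 159 CPM in KI and 268 CPM in WT blasts (chr15:97711015-97731339; −0.75, −0.83 to −0.68). Its ratio was past 1.5-fold. Cd8b1 was at 174 CPM in KI and 237 CPM in WT (−0.45, −0.52 to −0.37), Themis, which tunes receptor signals during selection, at 51.0 CPM in KI and 66.2 CPM in WT (−0.38, −0.52 to −0.24), and the adhesion receptor gene Cd2 at 19.2 CPM in KI and 24.8 CPM in WT (−0.37, −0.59 to −0.14). Ccr9, the receptor for the thymic chemokine CCL25, was at 39.4 CPM in KI and 56.3 CPM in WT (−0.52, −0.67 to −0.36).

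Genes of the stage before selection did not stand higher in KI. Of 12 listed 4 were measured, Hes1 (above), Rag1, Dntt and Notch1. Rag1, a subunit of the recombinase, was at 39.8 CPM in KI and 49.1 CPM in WT blasts (−0.30, −0.46 to −0.14), with −0.71 in cluster 3 and 0.04 in cluster 4. Dntt, the polymerase that adds untemplated bases at receptor junctions, was at 914 CPM in KI and 1111 CPM in WT (−0.28, −0.31 to −0.25). Notch1, the receptor that drives T commitment, had an interval that held 0 (−0.09, −0.22 to 0.03). Among 10 measured genes of recombination and end joining 3 intervals lay below 0 and 3 above, the last including Xrcc5, which encodes the Ku80 subunit, at 34.9 CPM in KI and 28.9 CPM in WT (0.27, 0.08 to 0.47).

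**Figure D2:**
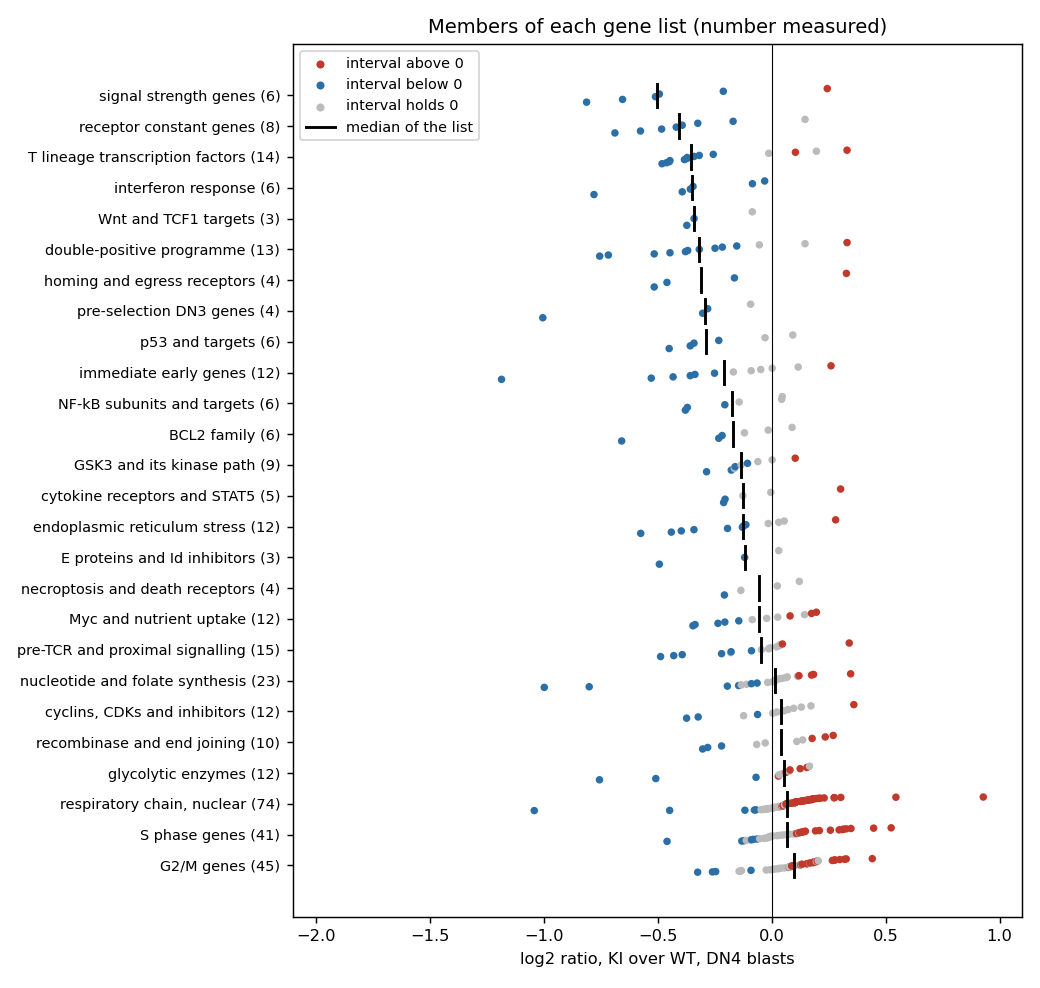
Log2 ratio KI over WT in DN4 blasts of every measured member of the 26 gene lists, ordered by median, with the number measured after each name; colour shows whether the counting interval lies above, below or across 0. Medians run from −0.50 for the signal strength genes to 0.10 for the G2/M genes.

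Transcripts of the receptor loci were lower in KI DN4 blasts as a group. Of 38 measured receptor and immunoglobulin genes 28 had an interval below 0 and 3 above, with a median of −0.31. Trbc2, one of the constant genes of the β chain, was at 367 CPM in KI and 592 CPM in WT blasts (chr6:41546730-41548352; −0.69, −0.74 to −0.64), and Trbc1 at 281 CPM in KI and 376 CPM in WT (chr6:41538218-41539881; −0.42, −0.48 to −0.36). In DN3 blasts the order was the other way, with Trbc2 at 642 CPM in KI and 440 CPM in WT and Trbc1 at 391.8 CPM in KI and 285 CPM in WT. The near-identical constant genes share 41.5% (Trbc2) and 38.8% (Trbc1) of their 60-base words with another gene, so counts can move between them. The constant genes of the γ chain were lower too, Tcrg-C2 at 32.6 CPM in KI and 48.6 CPM in WT (−0.58) and Tcrg-C1 at 31.1 CPM in KI and 43.4 CPM in WT (−0.48). Trac, the constant gene of the α chain, was at 26.1 CPM in KI and 23.6 CPM in WT, with an interval that held 0 (0.15, −0.07 to 0.37). The 8 listed constant genes had a median of −0.41 in DN4 blasts, −0.34 in cluster 2 and 0.03 in DN3 blasts.

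The receptor libraries gave a readout that the clusters do not contain. A productive TRB contig, one read in frame with no stop codon, was found for 1101 of 1160 KI blasts (94.9%, interval 93.5 to 96.1%) and for 469 of 493 WT blasts (95.1%, 92.8 to 96.9%). In DN3 blasts the shares were 83.7% in KI (80.1 to 86.9%) and 85.1% in WT (80.6 to 88.9%). Nearly every blast of the DN4 sort thus carried a β chain in both genotypes, and the intervals of KI and WT overlapped. The median productive TRB contig rested on 49.5 UMIs in KI and 51 UMIs in WT. Those UMIs come from the receptor libraries and were not scaled for depth, so they do not measure the Trbc2 and Trbc1 mRNA given above. Cells with 2 or more productive TRB chains were 62 of 1101 in KI (5.63%, 4.34 to 7.16%) and 23 of 469 in WT (4.90%, 3.13 to 7.27%).

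Productive TRA chains, made after the blasts stop dividing, were rare. They were found in 13 KI blasts (1.12%, 0.598 to 1.91%) and in 10 WT blasts (2.03%, 0.977 to 3.70%). Without the called doublets they were found in 8 of 1125 KI blasts and 5 of 480 WT blasts. Cluster 5 of the same sort had a productive TRA chain in 80.8% of KI and 83.0% of WT cells, and the part of their RNA in the few positive blasts was not tested.

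β chain junctions were diverse in both libraries. The KI blasts had 1188 productive TRB contigs with 1159 distinct nucleotide junctions, and the WT blasts 503 contigs with 489 distinct junctions. Of these contigs 25 in KI and 11 in WT repeated a junction already read in the same cell. The median junction had 42 bases in each, with quartiles of 39 and 45. Of the V segments 20 had an interval of the KI over WT ratio that held 0 and 1 did not. That segment, TRBV31, was used by 61 KI contigs (5.13%) and 14 WT contigs (2.78%), a log2 ratio of 0.88 (0.03 to 1.84). Of the J segments 11 had an interval that held 0 and 1 did not, TRBJ1-2, with 69 KI contigs (5.81%) and 49 WT contigs (9.74%), a log2 ratio of −0.75 (−1.30 to −0.19). With 1 contig per cell and junction, a choice made after seeing the data, the log2 ratio was 0.86 (0.0019 to 1.81) for TRBV31 and −0.71 (−1.27 to −0.14) for TRBJ1-2. In DN3 blasts TRBV31 took 4.84% of KI and 5.28% of WT contigs and TRBJ1-2 6.22% of KI and 6.69% of WT contigs. The mRNA of Trbv31 was at 115 CPM in KI and 71.0 CPM in WT blasts, read from the same cells as the contigs and so no separate support. So many segments were compared that a few such intervals can come from counting error alone.

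The only junctions seen in more than 1 blast of a genotype are printed, since they show how little clonal sharing the libraries hold. Each was found in 2 blasts, 4 of them in KI and 3 in WT, and capitals mark the first codon, for the conserved cysteine, and the last, for phenylalanine. They are read from the deposited contigs 5′ to 3′, on the coding strand of the Tcrb locus of chromosome 6.
KI, TRBV16 with TRBJ2-4: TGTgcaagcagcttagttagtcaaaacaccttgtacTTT
KI, TRBV12-2+TRBV13-2 with TRBJ2-2: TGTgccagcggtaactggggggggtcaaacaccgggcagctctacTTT
KI, TRBV12-1 with TRBJ2-3: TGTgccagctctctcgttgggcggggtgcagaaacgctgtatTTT
KI, TRBV17 with TRBJ2-5: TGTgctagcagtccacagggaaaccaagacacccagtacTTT
WT, TRBV2 with TRBJ2-2: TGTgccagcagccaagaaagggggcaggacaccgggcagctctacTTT
WT, TRBV12-2+TRBV13-2 with TRBJ1-4: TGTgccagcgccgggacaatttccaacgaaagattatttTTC
WT, TRBV31 with TRBJ1-1: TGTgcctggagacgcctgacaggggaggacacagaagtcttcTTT
No junction of one genotype's list occurs in the other's, and the V segments differ within each list. The lowest contig support among these cells was 3 UMIs in KI, for the TRBV16 junction, and 10 UMIs in WT, for the TRBV2 junction.

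The deposited S and G2M calls of the blasts had overlapping intervals over both clusters together, and G1 calls were fewer in KI. In S phase were 69.1% of KI blasts (66.3 to 71.7%) and 67.7% of WT blasts (63.4 to 71.9%), in G2M 29.1% of KI (26.5 to 31.8%) and 27.4% of WT (23.5 to 31.5%), and in G1 22 KI cells (1.90%, 1.19 to 2.86%) and 24 WT cells (4.87%, 3.14 to 7.16%). Within cluster 3, S phase took 83.2% of KI and 73.1% of WT cells. Within cluster 4 it took 41.5% of KI and 62.5% of WT cells, and G2M 58.5% of KI and 37.5% of WT cells. KI cells thus leaned to S phase in cluster 3 and to G2M in cluster 4. Phase calls rest on the genes described next, and the cells of each cluster are not the same mixture in the 2 genotypes.

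Cell cycle genes had medians slightly above 0 in KI over the whole class. Of 41 measured S phase genes 17 intervals lay above 0 (41.5%) and 6 below (14.6%), with a median of 0.07. Of 45 measured G2/M genes 21 lay above (46.7%) and 4 below (8.89%), with a median of 0.10. Over all measured genes the shares were 19.1% above and 25.4% below. The median of all measured genes was −0.02, and 0.04 with trimmed-mean scaling, so medians this small are of the order of the scaling choice. No member of either list reached 1.5-fold. Dscc1, a cohesion factor of the replication fork, was at 34.5 CPM in KI and 24.0 CPM in WT blasts (0.52, 0.32 to 0.74), and Pola1, the catalytic subunit of the priming polymerase, at 68.9 CPM in KI and 50.5 CPM in WT (0.45, 0.30 to 0.59). Pcna, the sliding clamp, was lower at 221 CPM in KI and 304 CPM in WT (−0.46, −0.52 to −0.39). Among G2/M genes the microtubule polymerase gene Ckap5 was at 54.9 CPM in KI and 40.4 CPM in WT (0.44, 0.28 to 0.60), and Kif11, the kinesin that separates spindle poles, at 86.2 CPM in KI and 68.7 CPM in WT (0.33, 0.20 to 0.45). By cluster the S phase median was 0.34 in cluster 3 and −0.12 in cluster 4, and the G2/M median 0.14 in cluster 3 and 0.43 in cluster 4. The S phase medians and the cluster 4 G2/M median leaned as the phase calls did, which rest on such genes. The cluster 3 G2/M median did not: G2M calls there took 13.95% of KI and 16.94% of WT cells.

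**Figure D3:**
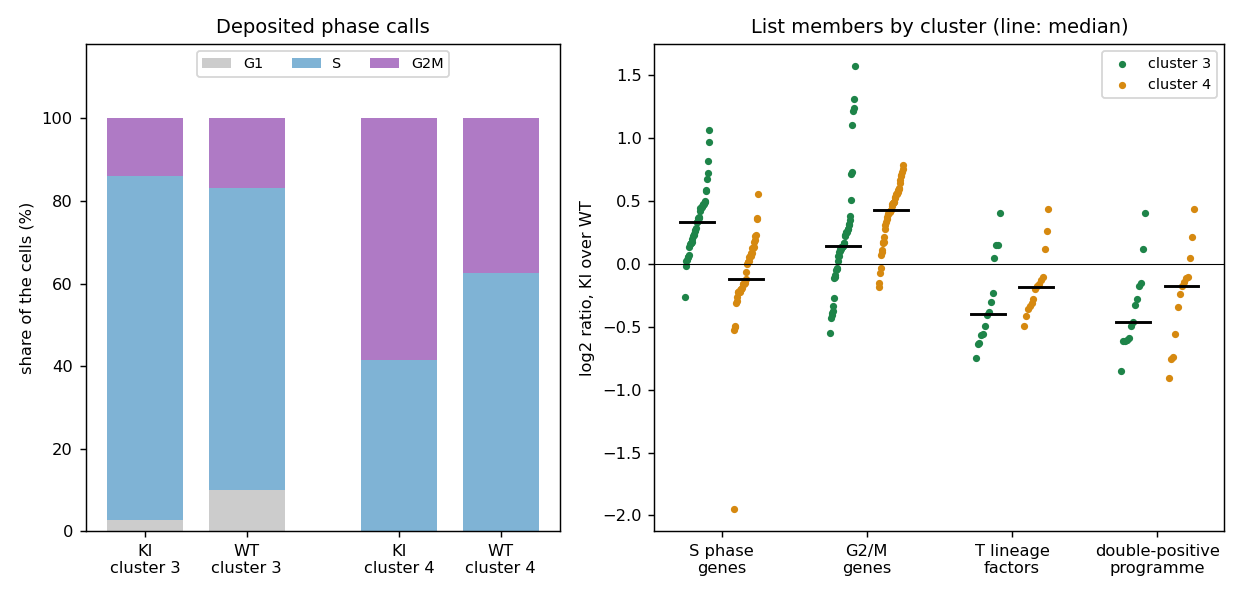
Left, share of cells with each deposited phase call in clusters 3 and 4 of KI and WT DN4 blasts; right, log2 ratio KI over WT of the measured members of 4 gene lists within each cluster, with black lines at the medians. G2M takes 58.5% of KI and 37.5% of WT cells of cluster 4, while the medians of the T lineage factors and the double-positive programme lie below 0 in both clusters.

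The T lineage factors, the double-positive programme and the signal strength genes had medians below 0 in each cluster. For the T lineage factors the median was −0.39 in cluster 3 and −0.18 in cluster 4, for the double-positive programme −0.46 and −0.17, and for the signal strength genes −0.59 and −0.40. Bcl11b was at −0.75 in cluster 3 and −0.16 in cluster 4, whereas Endou and Apobec3 had ratios of like size in the 2 clusters (−0.85 and −0.74, −2.17 and −2.20).

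Most measured histone genes were lower in KI, though their summed level was close, at 11068 CPM in KI and 11676 CPM in WT blasts. Of 29 measured 22 intervals lay below 0 and 3 above, 13 genes were past 1.5-fold and all of those were lower, and the median was −0.53. The linker histone genes Hist1h1d and Hist1h1a were at 74.97 CPM in KI and 186 CPM in WT blasts for Hist1h1d (−1.31, −1.41 to −1.22) and at 104 CPM in KI and 209 CPM in WT for Hist1h1a (−1.004, −1.09 to −0.92). The class median was 0.02 in cluster 3, −0.53 in cluster 4 and −0.78 in DN3 blasts. The part of cell cycle phase in these medians was not tested. Most histone transcripts carry no poly(A) tail, and the part of their capture in these values was not tested.

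Many listed survival and death genes were not measured, and none of those measured had an interval above 0. Bcl2l11, which encodes the death protein Bim, was at 17.2 CPM in KI and 27.2 CPM in WT blasts (−0.66, −0.88 to −0.43), past 1.5-fold. Mcl1, the survival factor that GSK3 marks for degradation, was at 29.3 CPM in KI and 34.02 CPM in WT (−0.22, −0.41 to −0.03), and Bax at 129 CPM in KI and 152 CPM in WT (−0.23, −0.32 to −0.14). Of 6 measured BCL2 family genes of 14 listed 3 intervals lay below 0 and none above. Of 6 measured p53 genes of 17 listed 4 lay below 0 and none above (median −0.29), with Mdm2, a p53 target and its inhibitor, at 31.9 CPM in KI and 43.5 CPM in WT (−0.45, −0.62 to −0.28) and Trp53 itself at −0.03 (−0.09 to 0.04). Ripk3, the kinase of necroptosis, was at −0.21 (−0.38 to −0.04) and was the one of 4 measured genes of its list with an interval that excluded 0.

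The measured genes of the interferon list and most of those of the stress list were lower too. All 6 measured interferon response genes of 26 listed had an interval below 0, with a median of −0.35. They ran from Ly6a, a surface marker, at 11.8 CPM in KI and 20.3 CPM in WT blasts (−0.78, −1.04 to −0.51), through Isg15, a ubiquitin-like modifier (−0.39, −0.55 to −0.23), to Ly6e at −0.03 (−0.05 to −0.01), which lay at 0.03 when libraries were scaled by trimmed means. In cluster 2 the interferon list had a median of 0.03, with 2 intervals above 0 and none below. Gbp7, interferon-inducible but outside the list, was higher in KI blasts (0.78). Of 12 measured endoplasmic reticulum stress genes 8 intervals lay below 0 and 1 above. Ppp1r15a, which restores translation after stress, was at 85.1 CPM in KI and 127 CPM in WT (−0.57, −0.68 to −0.47), and the chaperone gene Hspa5 at 301 CPM in KI and 397 CPM in WT (−0.40, −0.45 to −0.34). DN3 blasts had −0.55 for Ppp1r15a and −0.46 for Hspa5. Of the 6 measured NF-κB genes 3 lay below 0, led by the inhibitor gene Tnfaip3 at 22.5 CPM in KI and 29.2 CPM in WT (−0.38, −0.59 to −0.17).

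Metabolic genes were close to equal, with exceptions. Of 74 measured nuclear genes of the respiratory chain 46 intervals lay above 0 and 5 below, yet the median was 0.07 and 1 gene was past 1.5-fold on each side. Those were Atp5k, subunit e of ATP synthase, at 441 CPM in KI and 232 CPM in WT blasts (0.93, 0.86 to 0.99), and Cycs, which encodes cytochrome c, at 27.2 CPM in KI and 56.0 CPM in WT (−1.04, −1.21 to −0.88). Of 12 measured glycolytic genes 5 lay above 0 and 3 below, with Gapdh at 141 CPM in KI and 237 CPM in WT (−0.76, −0.83 to −0.68) and Pkm at 936 CPM in KI and 841 CPM in WT (0.15, 0.12 to 0.19). Gapdh shares 25.4% and Pkm 28.0% of its 60-base words with another gene. Among 12 measured genes of Myc and nutrient uptake 5 lay below 0 and 3 above, with the amino acid transporter gene Slc7a5 at 81.6 CPM in KI and 104 CPM in WT (−0.35, −0.45 to −0.24). Nucleotide synthesis genes had a median of 0.01, led by the nucleoside diphosphate kinase genes Nme1, at 109 CPM in KI and 217 CPM in WT (−0.998, −1.08 to −0.91), and Nme2, at 96.8 CPM in KI and 169 CPM in WT (−0.80, −0.89 to −0.71).

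Cyclins, cytokine receptors and E proteins filled the middle of the range. Cdk2, the kinase of S phase entry, was at 71.5 CPM in KI and 92.7 CPM in WT blasts (−0.37, −0.49 to −0.26), and Ccnd2, a D cyclin of pre-T cell receptor signalling, at 32.3 CPM in KI and 40.4 CPM in WT (−0.32, −0.50 to −0.15). Ccnb1, the mitotic cyclin, was at 106 CPM in KI and 82.7 CPM in WT (0.36, 0.25 to 0.47), with −0.08 in cluster 3 and 0.88 in cluster 4. Jak1, a kinase of cytokine receptors, was at 72.6 CPM in KI and 58.8 CPM in WT (0.30, 0.17 to 0.44), and Il2rg, the shared cytokine receptor chain, at 155 CPM in KI and 179 CPM in WT (−0.21, −0.29 to −0.13). The E protein genes Tcf3 (−0.12, −0.20 to −0.04) and Tcf12 (0.03, −0.08 to 0.14) stayed near 0. Of the receptors for homing, Itga4 was at 48.7 CPM in KI and 38.8 CPM in WT (0.33, 0.16 to 0.50) and P2ry10 at 24.5 CPM in KI and 33.6 CPM in WT (−0.46, −0.65 to −0.26).

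The DN3 libraries show which differences recur in blasts of another sort of the same genotypes. There 36 of the same 5149 genes (0.699%) were at least 1.5-fold higher in KI and 103 (2%) at least 1.5-fold lower. Of the genes lower in KI, 48 were shared, out of 123 in DN4 and 103 in DN3 blasts, and of those higher 6 were shared, out of 23 in DN4 and 36 in DN3 blasts. Genes past 1.5-fold in opposite directions were 14 that were lower in DN4 and higher in DN3 blasts, and 7 that were higher in DN4 and lower in DN3 blasts. Of the 22 genes at least 2-fold lower in DN4 blasts 17 were past 1.5-fold the same way in DN3 blasts and 2, Dynlt1f and Cycs, the opposite way. Cluster 2 shares its libraries with the DN4 blasts. There 63 of the 123 lower genes were past 1.5-fold the same way and 2 the opposite way. Of the 23 higher genes 14 were past 1.5-fold the same way there and none the opposite way.

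**Figure D4:**
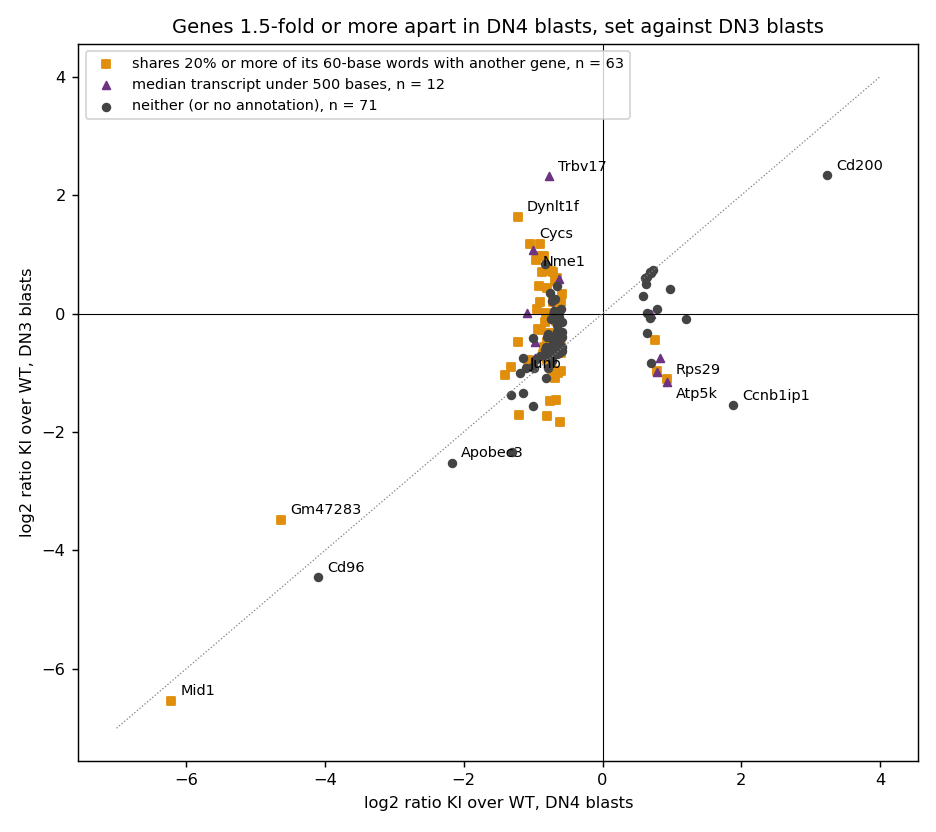
Log2 ratio KI over WT in DN3 blasts (vertical axis) against that in DN4 blasts (horizontal axis) for the 146 genes at least 1.5-fold apart in DN4 blasts; the dotted line marks equal ratios, squares are genes sharing 20% or more of their 60-base words with another gene and triangles those with a median transcript under 500 bases. Mid1, Cd96 and Apobec3 lie near the dotted line, Cd200 (3.23 in DN4 and 2.33 in DN3) on the same side of 0 in both, and Dynlt1f, Cycs, Nme1, Atp5k, Rps29 and Ccnb1ip1 in the opposite quadrants.

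Many genes with opposite signs share sequence with another gene or are short. Of the 14 lower in DN4 and higher in DN3 blasts, 13 shared at least 20% of their 60-base words with another gene or had a median annotated transcript under 500 bases, and of the 7 higher in DN4 and lower in DN3 blasts 5 did. Of the genes past 1.5-fold the same way at both stages 24 of 48 lower and 0 of 6 higher did. Among all measured genes with annotation 364 of 5110 (7.12%) share that much sequence and 190 of 5112 (3.72%) have such short transcripts, against 60 of 120 (50%) and 14 of 122 (11.5%) of the 1.5-fold lower genes, and 3 of 22 (13.6%) and 7 of 22 (31.8%) of the 1.5-fold higher genes. The 2 Cell Ranger versions in the submitters' notes are not assigned to libraries, and the part of read assignment in these differences was not tested.

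Named genes of this kind include several with high counts. Rps29, a small ribosomal protein gene, was at 4343 CPM in KI and 2288 CPM in WT DN4 blasts (0.92, 0.90 to 0.95) and at 1089 CPM in KI and 2354 CPM in WT DN3 blasts. Atp5k was at 111 CPM in KI and 248 CPM in WT DN3 blasts, opposite to DN4. Cycs was at 88.4 CPM in KI and 39.1 CPM in WT DN3 blasts, and Nme1 at 322 CPM in KI and 153 CPM in WT, again opposite to DN4. The WT values of Rps29 and Atp5k stood close together at the 2 stages and the KI values lay on either side of them. Dynlt1f, 1 of several near-identical dynein light chain genes with 85.7% of its words shared, was at 9.196 CPM in KI and 21.5 CPM in WT DN4 blasts and at 34.6 CPM in KI and 11.2 CPM in WT DN3 blasts. Ccnb1ip1, an E3 ubiquitin ligase needed for meiotic crossing over (chr14:50789248-50807732), is neither short nor shared and was at 71.8 CPM in KI and 19.5 CPM in WT DN4 blasts (1.88, 1.67 to 2.10) and at 6.53 CPM in KI and 19.1 CPM in WT DN3 blasts.

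**Figure D5:**
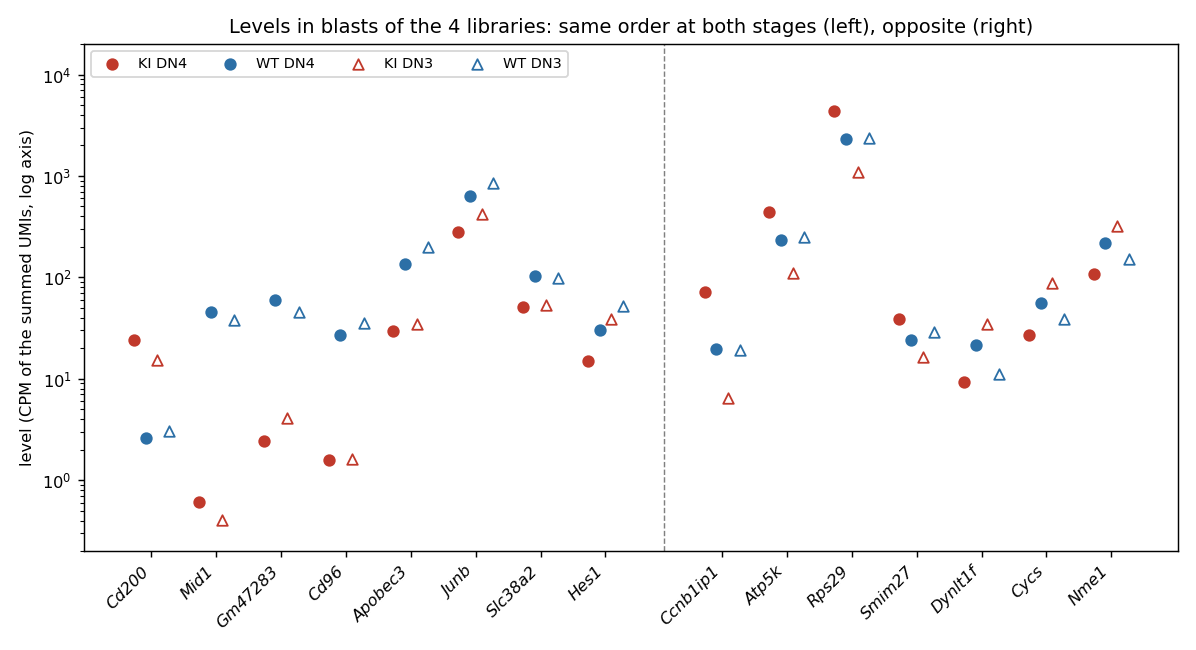
Levels in CPM (log axis) of 15 genes in KI and WT DN4 blasts (filled circles) and KI and WT DN3 blasts (open triangles); genes left of the dashed line have the same order of KI and WT at both stages, genes right of it the opposite order. Cd200 is at 24.3 CPM in KI and 2.59 CPM in WT DN4 blasts, and Ccnb1ip1 at 71.8 CPM in KI and 19.5 CPM in WT.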

How the data were processed

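RNA 5′ ends and T cell receptor chains were read in 4 pairs of libraries, KI and WT at DN3 and DN4, 1 pair per group. The deposited matrix holds raw UMI counts per gene and cell; the deposited contig tables hold UMI counts per assembled receptor chain; and the authors' cell table gives each cell's library, cluster and phase. The submitters' processing notes name Cell Ranger 3.1.0 and 6.0.1 and the build mm10; which version made which library, the annotation release and the clustering method are not given in the sources used here.

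Summed UMIs of the cells of clusters 3 and 4 were scaled to CPM in Python 3.11.15 (numpy 2.4.6, pandas 2.3.3, scipy 1.17.1), with exact conditional binomial intervals (95%) for ratios and Clopper-Pearson intervals for shares. The ratio and interval code was tested on simulated counts. Molecules of 1 library are not independent mice, so no interval stands for biological spread. Doublets were called with the Scrublet method in scanpy 1.11.5 and left in. Trimmed-mean scaling (edgeR 4.0.16 in R 4.3.3) was an alternative, as were other floors on CPM, clusters, phases, cells and totals. Of 15653 genes 15484 matched GENCODE vM21 by symbol, which supplied positions, transcript lengths and the 60-base words.

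Genes named are the 15 highest and 15 lowest ratios among measured genes whose interval excludes 0, leaving out receptor, ribosomal, mitochondrial, histone and sex genes; up to 6 members of each list; Gsk3b, Gsk3a, Mapk14 and Ctnnb1; and 3 genes on each side of the 2-fold threshold. Egr1, Axin2, Cd47 and the marker genes are given besides. The values of 3 genes that this rule takes are not reported here. The cells and lists were chosen with earlier results of these data known.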

Additional observations from a re-analysis of the deposited data

Results flagged for a closer look

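The KI over WT ratio had opposite signs in blasts of the DN4 and DN3 sorts, past 1.5-fold in each, in 14 genes lower in KI DN4 blasts and in 7 higher there, and the 7 of all these that the text names are given here. With 1 library per group the difference was not tested, and the intervals of the difference cover counting error only. Lower in KI DN4 and higher in KI DN3 blasts were Dynlt1f, with a log2 ratio of −1.22 in DN4 and 1.63 in DN3 (difference −2.86, interval −3.31 to −2.40), Cycs, with −1.04 in DN4 and 1.18 in DN3 (−2.22, −2.48 to −1.96), and Nme1, with −0.998 in DN4 and 1.08 in DN3 (−2.08, −2.21 to −1.95). Higher in KI DN4 and lower in KI DN3 blasts were Ccnb1ip1, with 1.88 in DN4 and −1.55 in DN3 (3.43, 2.94 to 3.91), Atp5k, with 0.93 in DN4 and −1.16 in DN3 (2.09, 1.96 to 2.22), Rps29, with 0.92 in DN4 and −1.11 in DN3 (2.04, 2.00 to 2.08), and Smim27, a small membrane protein gene, with 0.70 in DN4 and −0.83 in DN3 (1.53, 1.17 to 1.89). Of the 7, Dynlt1f, Cycs and Rps29 share at least 20% of their 60-base words with another gene, and Nme1, Rps29 and Atp5k have a median transcript under 500 bases. The others, Ccnb1ip1 and Smim27, have neither property. In cluster 2 of the DN4 libraries each of the 7 had a log2 ratio with the sign of the DN4 blasts, Smim27 at 0.93. The part of the library pair in these differences was not tested.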

How the results depend on the processing

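No paired analysis was possible because each genotype and stage has 1 library and no replicate numbers. The counts of genes 2-fold lower, 2-fold higher, 1.5-fold lower and 1.5-fold higher in KI were 22, 3, 123 and 23. They were 55, 7, 284 and 67 with a floor of 5 CPM, 10, 1, 67 and 11 with 50 CPM, and 1978, 340, 579 and 160 with no floor, where the first pair needs no interval and holds genes of a few UMIs. With the phases at equal weight they were 63, 11, 293 and 69, in a design where the G1 phase rests on 22 KI and 24 WT cells. The 2-fold and 1.5-fold higher counts were 11 and 66 in cluster 3 alone and 5 and 80 in cluster 4 alone, and the 1.5-fold higher count was 48 with the clusters at equal weight. Without genes that share sequence, chosen after seeing the data, 12 genes were 2-fold lower and 63 were 1.5-fold lower. These counts stayed within 1.5 times under the other settings run, such as trimmed-mean scaling, called doublets left out or genes of short transcripts left out (the last also chosen after seeing the data). The KI minus WT share of cells in S phase was 1.30 points, 10.0 in cluster 3 and −21.1 in cluster 4, and in G2M 1.67 points, 21.1 in cluster 4. Median genes per cell differed by −227, by −32 at 5000 UMIs, by −140.5 in cluster 3 and by −84 in cluster 4. Among values called in the main setting (a gene whose interval excluded 0, a list with intervals on the median's side of 0 in at least 50% of its measured genes), signs turned for Ly6e (0.0252 with trimmed means, 0.0636 in cluster 4), in cluster 3 for Cd6 (0.15), Nbn (0.0284), Dlgap5 (−0.10), Ccnb1 (−0.0784) and Shmt1 (0.15), in cluster 4 for Rag1 (0.0367) and Pgam1 (−0.0324), and with phases at equal weight for the homing and egress receptors median (0.0462), Mapk14 (0.0510), Cd6 (0.14), Cad (−0.16), Aldoa (−0.0016) and Herpud1 (0.25); the cause was not tested. Over all settings 1662 values of named genes stayed within their counting interval, 257 moved out of it and 14 called ones changed sign; 28 that had not been called also changed sign. Of list medians 330 stayed or moved by at most 0.1, 32 moved further and 1 called median changed sign; 19 uncalled medians changed sign, S phase genes in cluster 4 (−0.12) among them.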

Other observations

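Ribosomal protein genes and mitochondrially encoded genes were described apart from the lists. Of 88 measured ribosomal protein genes 48 intervals lay above 0 and 30 below in KI over WT DN4 blasts, and 3 were at least 1.5-fold higher and 10 at least 1.5-fold lower. Of 13 measured mitochondrially encoded genes 9 lay above 0 and 2 below, with 2 at least 1.5-fold higher and none lower. Genes grouped by median transcript length had median log2 ratios between −0.06 and 0.01 in DN4 blasts, the lowest at 2000 to 4000 bases and the highest under 500 bases, and genes under 500 bases had a median of −0.08 in DN3 blasts. The 364 genes that share at least 20% of their 60-base words had a median of −0.06 in DN4 and 0.00 in DN3 blasts.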
